A study of Homo sapiens with 66 samples.

Results

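Acute loss of the nuclear pore protein NUP50 was followed at the RNA level by comparing 3 DLD-1 libraries made after 3 h of auxin with 3 untreated libraries of the same line, 6 of the 66 samples of the series, across all genes. DLD-1 is a human colorectal adenocarcinoma line. In the NUP50-AID line, labelled NUP50-NeonGreen-AID, both endogenous copies of NUP50 were edited to carry the green fluorescent protein NeonGreen and an auxin-inducible degron (AID), and the ligase TIR1 was expressed from the RCC1 locus, so that 1 mM auxin targets the tagged protein for the proteasome. The untreated libraries carry the same edits and were given no auxin. The labels state no vehicle and no time for them. Every library of the line therefore comes from 1 edited cell line, and an effect of the tag, of TIR1 or of the clone is shared by both groups, whereas an effect of auxin itself is not. Compared with these were 3 NUP50-AID libraries after 9 h of auxin, 6 libraries of NUP153-AID cells (labelled NUP153-NeonGreen-AID, untreated or auxin for 2 h) and 6 of parental DLD-1 cells, which carry no degron (labelled untreated or auxin for 2 h). Values of further degron lines stand beside these, untreated or after auxin for 2 h (AID-TPR, AID-NXF1 and RANGAP1-AID) or 3 h (AID-GANP). Libraries of AID-TPR labelled old did not enter the fit of that line. All were sequenced as total RNA depleted of ribosomal RNA.

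NUP50 is a mobile nucleoporin of the nuclear basket, the filaments on the nucleoplasmic face of the pore that also hold NUP153 and TPR. It binds NUP153 and importin alpha, and helps to release cargo from importins inside the nucleus. TPR anchors the TREX-2 complex of messenger RNA export, whose scaffold is GANP. NXF1 is a major export receptor for messenger RNA. The aryl hydrocarbon receptor (AHR) is a transcription factor activated by many small aromatic molecules. It partners with ARNT, induces the cytochrome P450 genes CYP1A1, CYP1A2 and CYP1B1, and induces its own repressors AHRR and TIPARP.

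Total counts were 18943661 to 27249161 in the 3 h libraries and 23277498 to 27425666 in the untreated ones. The share of counts from mitochondrial genes was 0.316% to 1.03% in untreated and 0.443% to 2.47% in 3 h libraries, highest in auxin replicate 1. The 12 colorectal epithelium markers summed to 7509 to 7940 CPM (counts scaled to library size) untreated and 7432 to 8219 CPM at 3 h, with CEACAM5 at 0 counts. The 7 fibroblast markers summed to 0.328 to 0.527 CPM untreated and 0.211 to 0.380 CPM at 3 h, with COL3A1 and LUM at 0. The 7 blood cell markers stood at 0.839 to 1.20 and 0.713 to 1.101 CPM, with HBB at 0, and the 5 endothelial markers at 4.01 to 6.40 and 2.53 to 5.23 CPM, with KDR at 0.

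The messenger RNA of the degraded protein did not pass the test. NUP50 was at 266, 295 and 289 CPM in the untreated libraries and 328, 308 and 325 CPM after 3 h. The groups did not overlap, but the log2 fold change of 0.18 ± 0.07 (SE) had an adjusted p of 0.682. Since auxin acts on the protein, this is no check of the degradation. NUP153 (log2 fold change 0.06 ± 0.07), TPR (0.05 ± 0.09) and RCC1 (0.18 ± 0.08), the locus that carries TIR1, also did not pass.

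After 3 h, 39 of 17812 tested genes were called. A call needed an adjusted p (edgeR, Benjamini-Hochberg) below 0.05 together with a ratio to untreated of 1.3 or more, or 0.7 or less. Of these, 37 rose and 2 fell, which is 0.219% of the tested genes, 0.208% higher and 0.0112% lower. The largest rise was that of the AHR target CYP1A1, and genes beside it on chromosome 15 were also among those that rose. The 2 that fell, KLHL9 and TRMT12, have 1 exon. Removing the 7 genes also called in parental DLD-1 cells (CYP1A1, CYP1B1, CYP1B1-AS1, MEGF6, EDC3, CLK3 and TIPARP) left 32, of which 30 were higher and 2 lower. As labelled, these 7 were called lower with auxin in DLD-1 cells, the opposite direction. In all 39 genes the 3 h libraries lay wholly on one side of the untreated ones, as they did for 11.8% of all tested genes. The calls were made on these same libraries, so the separation is no further support for them. Leaving out a library moved the count of 32 to 7 without auxin replicate 2 or without untreated replicate 2, to 20 without auxin replicate 3 and to 64 without auxin replicate 1. Of the 39 genes, 13 passed whichever library was left out: CYP1A1, CYP1B1, CYP1B1-AS1, TIPARP, ALDH1A3, MEGF6, ADGRF1, NANOS1, EDC3, CLK3, MB21D2, DENND3 and STMND1. The other 26 did not pass in at least 1 of the 6 such fits.

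**Figure D1:**
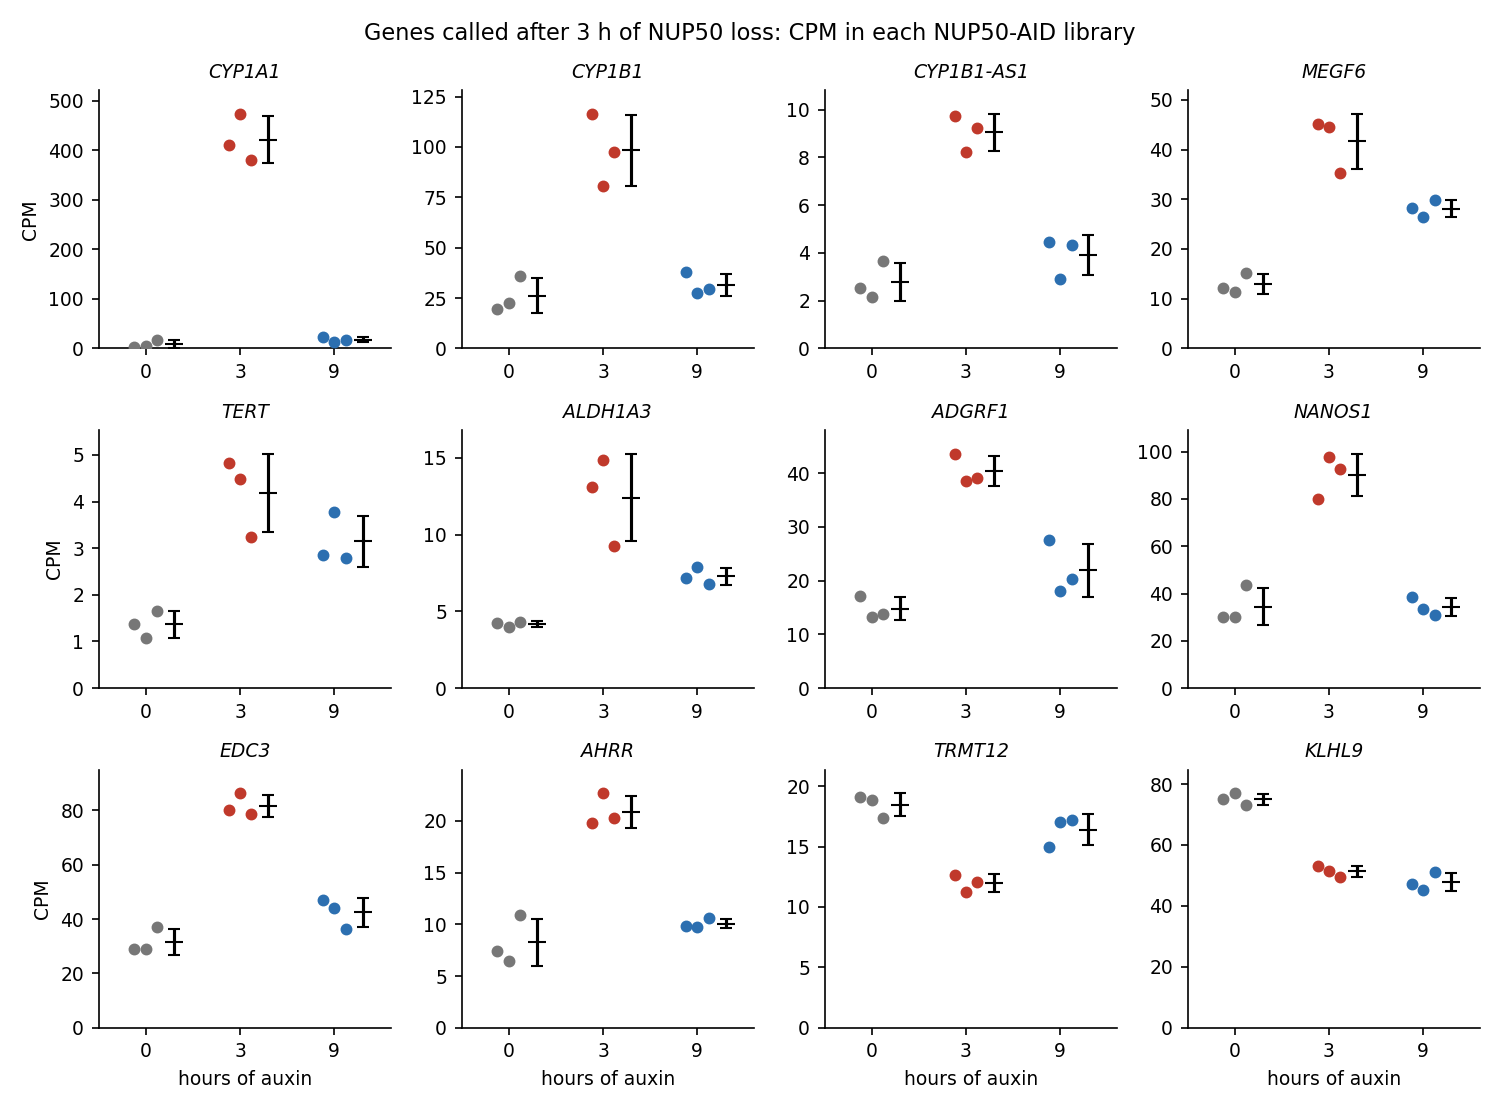
CPM (vertical axis, from 0) in each NUP50-AID library at 0, 3 and 9 hours of auxin for the 10 genes called higher with the largest log2 fold change and 50 or more counts on average, and for the 2 called lower; points are the 3 libraries, bars the mean ± SD. The 3 h points of CYP1A1 lie between 380 and 473 CPM, and its 9 h points between 13.7 and 22.4 CPM.

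The AHR pathway list was chosen with earlier results of these data known. It had 11 of its 12 members tested, and 7 of them rose, against 0.208% of all tested genes called higher. None fell. The median log2 fold change of the list was 1.23, against 0.00 over all tested genes. CYP1A1, which oxidises polycyclic aromatic compounds, was at 2.64, 3.90 and 17.1 CPM untreated and at 411, 473 and 380 CPM after 3 h. All 3 treated libraries lay far above the untreated ones, of which replicate 3 was the highest. The fitted log2 fold change was 5.71 ± 0.48 (adjusted p = 0.000313), a 52.4-fold rise. CYP1B1, a related P450 that also acts on oestrogens and retinoids, went from 19.6, 22.6 and 36.0 CPM to 116, 80.9 and 97.6 CPM (log2 fold change 1.91 ± 0.20, adjusted p = 0.00129). Its overlapping antisense RNA CYP1B1-AS1 stood at 2.51, 2.15 and 3.68 CPM untreated and 9.72, 8.21 and 9.23 CPM at 3 h. The strand setting of the read counting is not given in the sources used here, so reads of this pair may not be separable. CYP1A2, a close paralogue of CYP1A1 with a mean of 15.8 counts, also rose (log2 fold change 2.66 ± 0.39), and reads shared with CYP1A1 would make its value uncertain.

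Both feedback genes of the receptor rose. AHRR, the AHR repressor, was at 7.46, 6.48 and 10.8 CPM untreated and 19.8, 22.6 and 20.3 CPM at 3 h (log2 fold change 1.33 ± 0.17, adjusted p = 0.00559), and its adjusted p was 0.0698 without auxin replicate 2. TIPARP, an ADP-ribosyltransferase that inactivates AHR, was at 67.3, 78.7 and 91.8 CPM untreated and 181, 167 and 210 CPM at 3 h (1.23 ± 0.12, adjusted p = 0.000686). In neither gene did the groups overlap. ALDH1A3, which makes retinoic acid from retinaldehyde, rose from 4.26, 3.99 and 4.30 CPM to 13.1, 14.9 and 9.28 CPM (1.57 ± 0.18, adjusted p = 0.00233). SLC7A5, a transporter of large neutral amino acids, rose from a mean of 543 ± 36.8 to 799 ± 102 CPM (SD, n = 3; log2 fold change 0.56 ± 0.09), with an adjusted p of 0.256 without untreated replicate 2. Of the members not called, the receptor AHR had a log2 fold change of -0.10 ± 0.10, its partner ARNT -0.21 ± 0.09, NQO1 -0.03 ± 0.13 and ALDH3A1 0.40 ± 0.13. LRAT was not tested.

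The RefSeq promoter table (GRCh38.p14, 250 bases before to 50 after the start) was searched because the AHR-ARNT dimer binds the dioxin response core GCGTG. The promoters shown are those of the 4 called genes with the most counts among those matched, SLC7A5, AJUBA, CYP1A1 and CDK6. GPRC5A and CYP1B1 were not matched. Capitals mark GCGTG, or CACGC where the core lies on the other strand.

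CYP1A1 (chr15:74725479-74725778, minus strand): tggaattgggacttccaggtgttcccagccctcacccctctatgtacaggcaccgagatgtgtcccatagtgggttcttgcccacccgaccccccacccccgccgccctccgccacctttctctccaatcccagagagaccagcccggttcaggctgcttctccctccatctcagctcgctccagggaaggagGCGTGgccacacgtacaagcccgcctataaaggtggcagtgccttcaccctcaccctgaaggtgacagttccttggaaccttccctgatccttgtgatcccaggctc
SLC7A5 (chr16:87869458-87869757, minus strand): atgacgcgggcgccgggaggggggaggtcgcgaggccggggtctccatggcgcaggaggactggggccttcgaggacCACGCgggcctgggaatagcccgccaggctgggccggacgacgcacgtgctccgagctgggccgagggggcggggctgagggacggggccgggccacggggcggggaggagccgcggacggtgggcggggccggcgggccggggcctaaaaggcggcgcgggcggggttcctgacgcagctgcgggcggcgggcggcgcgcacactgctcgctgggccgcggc
AJUBA (chr14:22982502-22982801, minus strand): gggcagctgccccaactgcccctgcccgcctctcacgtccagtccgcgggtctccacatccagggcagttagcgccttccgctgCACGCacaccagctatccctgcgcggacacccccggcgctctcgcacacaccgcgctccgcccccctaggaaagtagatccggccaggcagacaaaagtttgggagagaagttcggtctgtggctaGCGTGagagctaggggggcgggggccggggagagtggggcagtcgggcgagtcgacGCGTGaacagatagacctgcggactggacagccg
CDK6 (chr7:92836524-92836823, minus strand): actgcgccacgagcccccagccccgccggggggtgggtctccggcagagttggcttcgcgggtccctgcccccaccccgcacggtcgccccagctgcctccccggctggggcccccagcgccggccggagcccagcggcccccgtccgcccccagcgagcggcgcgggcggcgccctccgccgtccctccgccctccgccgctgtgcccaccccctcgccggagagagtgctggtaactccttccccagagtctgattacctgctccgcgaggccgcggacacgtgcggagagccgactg

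The CYP1A1 promoter held 1 core, that of SLC7A5 held 1, that of AJUBA held 3 and that of CDK6 none. AJUBA and CDK6 each had a further start in the table, not printed, and there the counts were the other way round, with no core for AJUBA (chr14:22976793-22977092) and 1 for CDK6 (chr7:92833910-92834209). Among the 30 genes called higher with a promoter in the table, 19 held the core (63.3%), against 52.0% of the 9230 promoters of tested genes averaging 50 or more counts and 36.3% of all 27305 promoters. The AP-1 site TGACTCA was in 0 of the 30, against 2.80% of the tested promoters. The CRE core TGACG was in 7 (23.3%, against 35.6%), the E-box CACGTG in 5 (16.7%, against 10.3%) and the NRF2 core TGACNNNGC in 6 (20%, against 15.2%). TGACNNNGC can overlap TGACG, and all were searched on both strands. The KLHL9 promoter held TGACG and none of the other 4 motifs. TRMT12 was not matched.

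CYP1A1 sits on the minus strand of chromosome 15 (chr15:74719542-74725536, GRCh38, GENCODE 44), and 4 of the 11 other tested genes within 200 kb of it were called, all higher, against 0.208% of all tested genes. This window was chosen after the values were seen. EDC3 (chr15:74630558-74696292, minus strand), an activator of messenger RNA decapping, lies downstream of CYP1A1 in its direction of transcription at a gap of 23.2 kb. It went from 28.9, 28.9 and 37.2 CPM to 80.3, 86.3 and 78.7 CPM (log2 fold change 1.37 ± 0.11, adjusted p = 0.000229). CLK3 (chr15:74598500-74645414, plus strand), a kinase of splicing factors, overlaps the far end of EDC3 on the other strand and went from 62.0, 60.2 and 57.3 CPM to 104, 104 and 102 CPM (0.79 ± 0.07). On the other side, CYP1A2 (chr15:74748845-74756607, plus strand) lies 23.3 kb away. CSK (chr15:74782080-74803197, plus strand), the kinase that inhibits Src, lies 56.5 kb away and went from 43.7, 41.4 and 44.2 CPM to 68.6, 68.5 and 62.3 CPM (0.63 ± 0.08). None of these groups overlapped. The adjusted p of CSK was 0.0695 and that of CYP1A2 0.134 at most with a library left out. Beyond CLK3, ARID3B had a log2 fold change of 0.55 ± 0.20 (adjusted p = 0.618). Beyond CSK, ULK3, SCAMP2, MPI, FAM219B and COX5A had values between -0.11 and 0.16 and did not pass, and 1 further lncRNA had under 1 count on average.

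**Figure D2:**
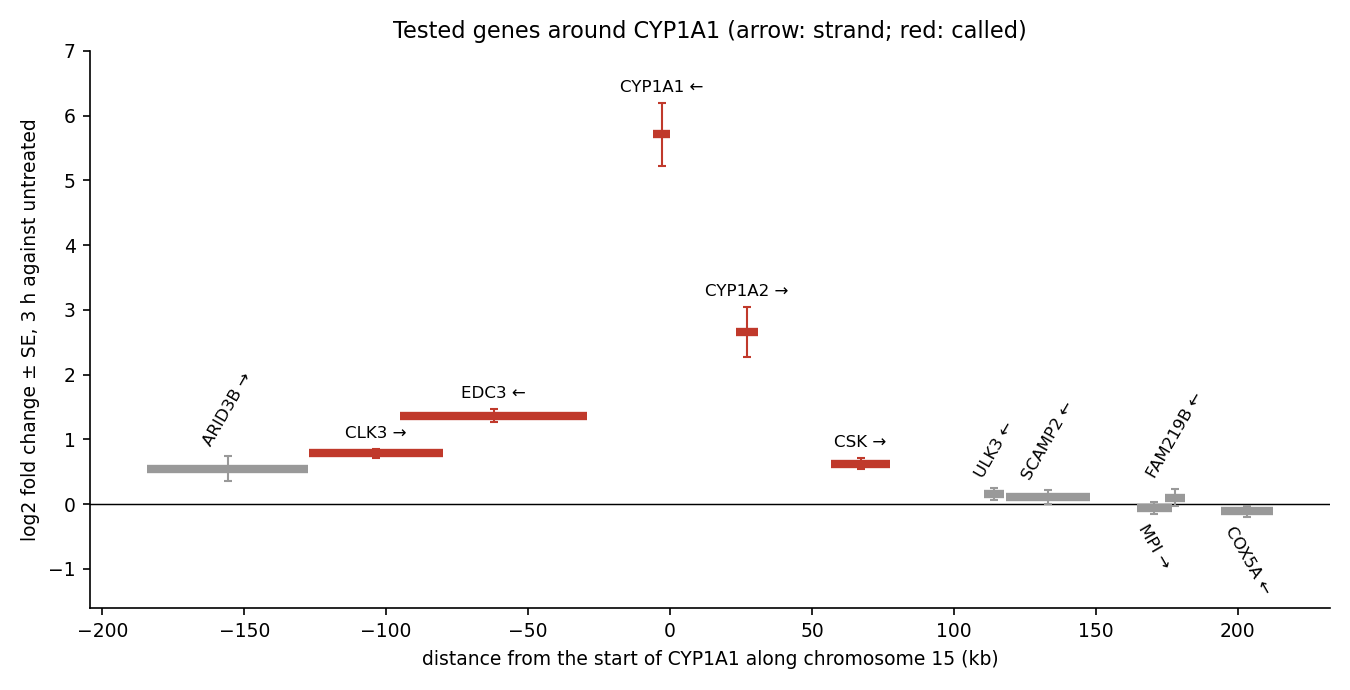
Log2 fold change ± SE (vertical axis) at 3 h of tested genes around CYP1A1 with a mean of at least 10 counts, against distance from its start in kb; the bar spans the gene, the arrow gives its strand, and red genes were called. The values fall from 5.71 at CYP1A1 to 0.79 at CLK3 on one side and 0.63 at CSK on the other.

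The same window around AHRR held 10 other tested genes and around TIPARP 5, none of them called, with median log2 fold changes of 0.02 and -0.02. Around CYP1B1 only the antisense RNA was called among 3. One further pair of called genes lay side by side. ANKRD13C and HHLA3 start 51 bases apart on opposite strands of chromosome 1. ANKRD13C (chr1:70258999-70354734), an ankyrin repeat protein of the endoplasmic reticulum, rose from a mean of 103 ± 8.77 to 148 ± 14.2 CPM (log2 fold change 0.53 ± 0.09). The lncRNA HHLA3 (chr1:70354786-70385339) rose from 2.73 ± 0.149 to 5.92 ± 0.230 CPM (1.11 ± 0.15). ANKRD13C lost the call in 4 of the 6 fits with a library left out (adjusted p up to 0.295), and HHLA3 in 3 (up to 0.0846).

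Outside the AHR list, CYP1B1-AS1 and this region the largest rises were those of MEGF6, ADGRF1, NANOS1 and TERT among genes averaging 50 or more counts. MEGF6, a protein with EGF-like repeats, went from 12.2, 11.4 and 15.3 CPM to 45.2, 44.5 and 35.3 CPM (log2 fold change 1.69 ± 0.14, adjusted p = 0.000229). ADGRF1, an adhesion G protein-coupled receptor, went from 17.2, 13.2 and 13.8 CPM to 43.7, 38.5 and 39.1 CPM (1.46 ± 0.12, adjusted p = 0.000229). NANOS1, an RNA-binding repressor of translation with 1 exon, went from 29.9, 30.2 and 43.4 CPM to 80.2, 97.6 and 92.7 CPM (1.39 ± 0.14). TERT, the catalytic subunit of telomerase, was low throughout, at 1.38, 1.07 and 1.66 CPM untreated and 4.83, 4.49 and 3.24 CPM at 3 h (1.60 ± 0.23, adjusted p = 0.0134). The groups were apart in all of these. FGF9, a secreted growth factor, and STMND1, a stathmin domain protein, rose by 2.19 ± 0.30 and 2.69 ± 0.26 on the log2 scale from untreated means of 0.345 and 0.409 CPM, with 22 and 34.7 counts on average over the 6 libraries. The call of TERT was lost without auxin replicate 2 (adjusted p = 0.134) or untreated replicate 2.

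RARG, a retinoic acid receptor, rose by 0.64 ± 0.11 on the log2 scale, RARRES2, which encodes the adipokine chemerin, by 0.83 ± 0.13, and GPRC5A, an orphan receptor inducible by retinoic acid, by 0.48 ± 0.08. Also higher were LHX4, a homeodomain factor (0.99 ± 0.16), MED13L, a subunit of the Mediator kinase module (0.49 ± 0.07), and CDK6, a kinase of the G1 phase (0.71 ± 0.12). MED13L was at 134, 139 and 147 CPM untreated and at 196 CPM in each of the 3 h libraries. AJUBA, a LIM protein of cell junctions that restrains the Hippo pathway, rose from 325, 313 and 331 CPM to 457, 434 and 459 CPM (0.48 ± 0.06, adjusted p = 0.00831). MB21D2 rose from 61.0, 58.9 and 66.6 CPM to 109, 94.8 and 111 CPM (0.75 ± 0.09, adjusted p = 0.00254). The others called higher were DENND3 (0.75), MTCL1 (0.79), PROSER2 (0.72), MMP24 (0.65), TPRA1 (0.56), TMEM131L (0.55), NBPF1 (0.52), NHS (0.48), SORL1 (0.47) and the lncRNA ENSG00000259932 (1.01), all log2 fold changes. MED13L, AJUBA, CDK6, LHX4, RARG, RARRES2, GPRC5A and all of those last named but DENND3 lost the call in at least 1 fit with a library left out, and NHS in all 6. NBPF1 belongs to a family of near-identical copies, so its counts are uncertain.

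Of the 20 gene lists, 18 held no called member, which says little of lists of this size when 0.219% of all tested genes were called. The nuclear basket and its transport partners (17 tested) had a median log2 fold change of 0.07 and a range of -0.07 to 0.22. The other nucleoporins (27 tested) had a median of 0.02, and NUP214 (0.40 ± 0.11, adjusted p = 0.37) and POM121 (0.40 ± 0.14) had the largest values. The TREX-2, NXF1 and THO list (16 tested) had a median of -0.02. Among the immediate early genes (14 tested, median 0.25), FOS was at 4.78, 4.08 and 6.40 CPM untreated and 5.42, 4.38 and 5.51 CPM at 3 h, with overlapping groups. EGR1 was at 19.3, 20.2 and 26.4 CPM untreated and 22.1, 17.2 and 19.5 CPM at 3 h, also overlapping. In the YAP/TEAD list (10 tested, median 0.21) AJUBA was the called member, and ANKRD1 had a log2 fold change of -0.85 ± 0.23 (adjusted p = 0.33). Members of other lists close to the threshold were EGFR (0.43 ± 0.08), the stress phosphatase subunit PPP1R15A (0.59 ± 0.11) and the intestinal transcription factor CDX2 (0.78 ± 0.14), each with an adjusted p of 0.054. Medians were 0.06 for EGF receptor ligands and MAP kinase feedback, -0.00 for the integrated stress response and for heat shock, 0.09 for NRF2 targets, 0.07 for NF-kappaB targets, -0.02 for Wnt targets, -0.10 for TGF-beta and BMP feedback, 0.02 for S phase, 0.03 for mitosis and -0.12 for cholesterol synthesis, with no member called.

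KLHL9 and TRMT12 were the genes that fell. KLHL9 (chr9:21329665-21335404, minus strand), an adaptor of the CUL3 ubiquitin ligase that acts in mitosis, was at 75.0, 76.9 and 73.3 CPM untreated and 53.1, 51.5 and 49.6 CPM after 3 h (log2 fold change -0.54 ± 0.08, adjusted p = 0.0103). TRMT12 (chr8:124450820-124462150, plus strand), an enzyme of wybutosine synthesis in phenylalanine transfer RNA, was at 19.1, 18.8 and 17.4 CPM untreated and 12.7, 11.2 and 12.1 CPM after 3 h (-0.62 ± 0.11, adjusted p = 0.0465). Neither gene's groups overlapped. The call of KLHL9 was lost without auxin replicate 2, auxin replicate 3 or untreated replicate 2 (adjusted p up to 0.084), and that of TRMT12 without any library but auxin replicate 1 (up to 0.279). At 9 h KLHL9 was at 47.0, 45.2 and 51.0 CPM, close to its 3 h level, and TRMT12 at 14.9, 17.0 and 17.2 CPM, between its 3 h and untreated levels, but in neither did 9 h differ from 3 h past the threshold (adjusted p = 0.794 and 0.157).

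The canonical transcripts of both genes have 1 exon. Of the 6 genes just short of a call, 3 were fitted lower and 3 higher. ZFP62, a zinc finger protein with 2 exons, passed the test (adjusted p = 0.0475) but not the fold, at -0.50 ± 0.09. SPIN4, a reader of histone methylation (-0.56 ± 0.10), and MAGEF1 (-0.43 ± 0.08) each have 1 exon and an adjusted p of 0.0501. TPPP (0.96 ± 0.17), VIPR1 (0.50 ± 0.09) and FAT1 (0.44 ± 0.08) were fitted higher at the same adjusted p. Ranked by p-value, the 20 protein-coding genes fitted lower included 12 with 1 exon and 17 with 1 or 2, against 1.99% and 6.02% of the 10823 protein-coding genes averaging 50 or more counts. Their log2 fold changes ran from -0.66 to -0.30. Of the 20 ranked highest among genes fitted higher, 1 had 1 exon. This ranking was made after the values were seen and most of its genes were not called. The number with 1 exon lay between 8 and 12 when the scaling, the tool or the libraries were changed.

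Over the whole class of single-exon genes the values were close to 0. The median log2 fold change at 3 h was -0.01 over 215 single-exon protein-coding genes and -0.06 over the 165 that are not histone genes, of which 61.2% were fitted lower. The share fitted lower was of similar size in genes with 3 to 5 exons (57.7%) and 6 to 10 exons (55.8%). Genes with over 20 exons (1537) had a median of 0.04. At 9 h of NUP50 loss, against the same untreated libraries, 10 of the 20 genes fitted lower had 1 exon and 13 had 1 or 2. In the comparable fits of other lines the 20 genes fitted lower included 10 single-exon genes after TPR loss, 6 after GANP loss and 3 after RANGAP1 loss. They included 1 each after NXF1 and NUP153 loss, and 2 in DLD-1 cells as labelled. For TPR, GANP and NXF1 loss the class medians without histone genes were -0.37, -0.78 and -0.28. These counts were not tested against each other.

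**Figure D3:**
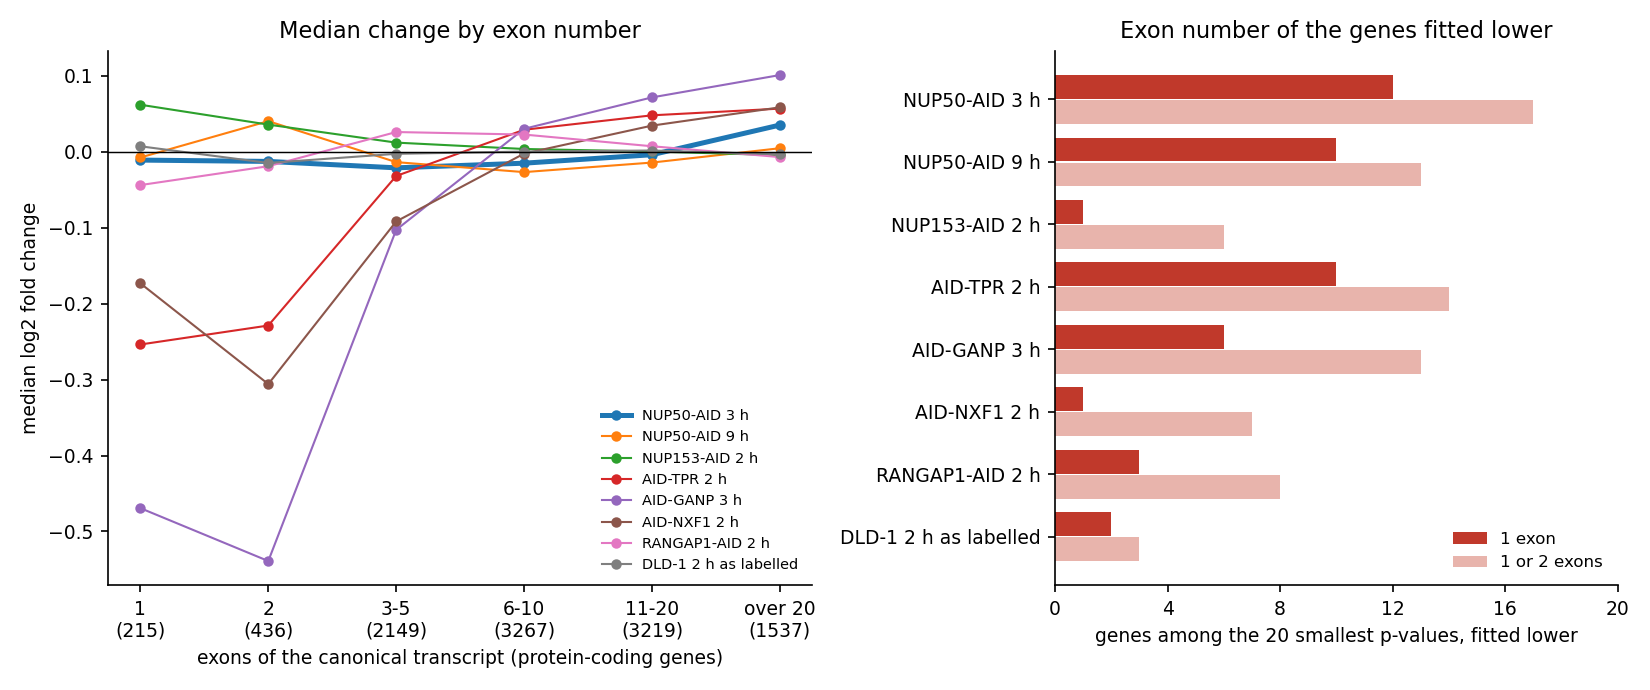
Left, median log2 fold change (auxin against untreated) of protein-coding genes by exon number, with the number of genes in brackets and a line for each comparison; right, how many of the 20 genes with the smallest p-values among those fitted lower have 1 exon, or 1 or 2 exons. NUP50-AID at 3 h stays between -0.02 and 0.04 on the left, and has 12 and 17 genes on the right.

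The effect of NUP50 loss was next compared with that of NUP153 loss, as NUP153 is the basket protein that holds NUP50 at the pore. The times differ by the labels, at 3 h and 2 h of auxin, but a figure legend for these lines names 2 h throughout, so the true difference in time is uncertain. In the test of the difference between the 2 auxin effects over 12 libraries, 8 genes passed (0.0449% of 17812), and all 8 had the lower value with NUP50 loss. Each was fitted lower after NUP50 loss. In the NUP50-AID fit alone KLHL9 was called, and ZFP62 passed the adjusted p but not the fold. The adjusted p of the rest lay there between 0.0501 (SPIN4) and 0.164 (PABIR1). All 8 were fitted higher after NUP153 loss, and none passed in the NUP153-AID fit alone. The 3 with the largest differences were ZBTB26, a zinc finger protein with 2 exons (difference -1.26 ± 0.17, adjusted p = 0.0135), PLPP6, a lipid phosphatase with 1 exon (-0.96 ± 0.14, adjusted p = 0.0150), and PABIR1, an inhibitor of the phosphatase PP2A with 1 exon (-0.87 ± 0.13, adjusted p = 0.0265). The others were SPIN4 (-0.82), KLHL9 (-0.77), ZFP62 (-0.76), ATXN7L3B (-0.75) and BAG5, a co-chaperone of HSP70 (-0.64). In KLHL9 the change was -0.54 with NUP50 loss and 0.22 with NUP153 loss. ZBTB26 was at 11.4, 11.7 and 10.1 CPM untreated and 7.95, 7.33 and 5.66 CPM after 3 h of NUP50 loss, without overlap.

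Of these 8 genes 5 have 1 exon and 3 have 2, whereas 4.71% of tested genes averaging 50 or more counts have 1 exon. In the GANP fit all 8 were lower with an adjusted p under 0.05, as were 18.7% of all tested genes, and the median log2 fold changes there were -0.47 for genes with 1 exon and -0.54 for genes with 2. In the TPR fit all 8 were fitted lower, 1 of them, ZFP62 (-0.85), past the threshold, against 0.55% of all tested genes. In DLD-1 cells as labelled none of the 8 moved by over 0.11 on the log2 scale. Over all libraries of a line, those given actinomycin D excluded, mitochondrial genes took 0% of counts in AID-GANP and DLD-1 cells. They took 0% to 0.616% in the 15 libraries of AID-TPR and 0.0444% to 0.161% in the 9 of NUP153-AID. For these 2 lines that is more libraries than entered the fits. The part of this difference in the results was not tested. The one-sided direction was not kept by every alternative: DESeq2 gave 6 higher and 24 lower, no filter 35 and 65, the replicate block 37 and 47, and leaving out NUP153-AID untreated replicate 3 or NUP50-AID auxin replicate 3 gave 2 and 6 or 1 and 4. Leaving out single libraries gave 3 to 8 genes. It gave 5 or fewer without NUP50-AID auxin replicate 2 or 3, untreated replicate 2 or 3, NUP153-AID auxin replicate 2, or NUP153-AID untreated replicate 1 or 2.

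**Figure D4:**
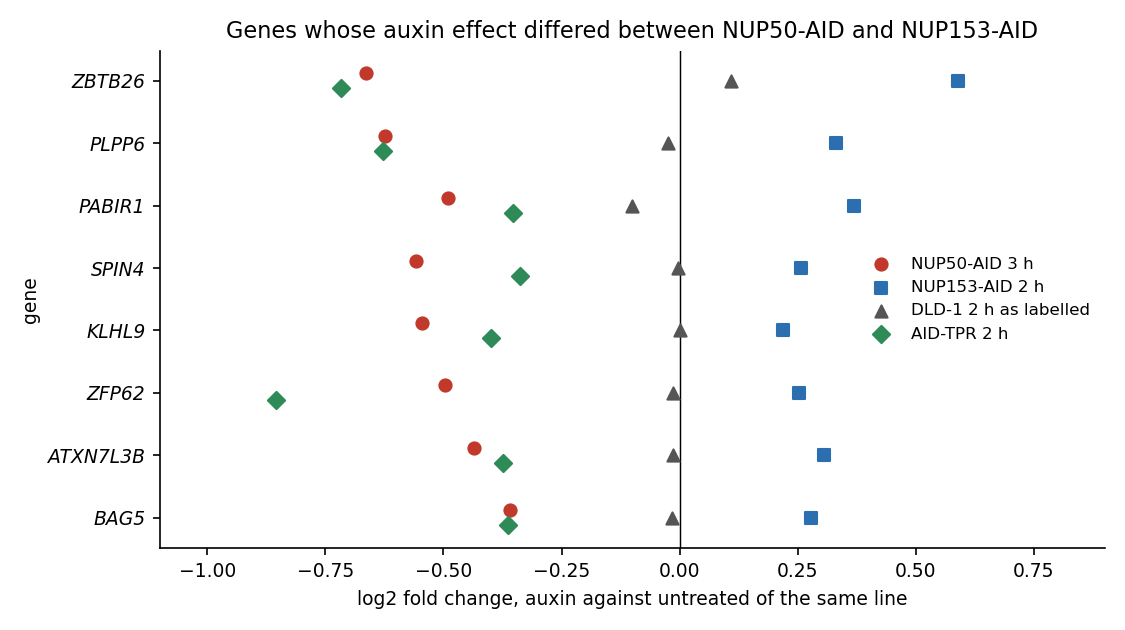
Log2 fold change (horizontal axis, auxin against untreated of the same line) of the 8 genes whose effect differed between NUP50-AID and NUP153-AID cells, with the values of AID-TPR and parental DLD-1 cells beside them. Every NUP50-AID value lies below 0 and every NUP153-AID value above, between 0.22 and 0.59.

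Of the 37 genes that rose with NUP50 loss, 36 were fitted higher after NUP153 loss and 1 was fitted lower, ENSG00000259932 at -0.27. The median log2 fold change of the 37 was 0.79 at 3 h of NUP50 loss and 0.44 at 2 h of NUP153 loss. The 37 were chosen by their NUP50-AID values, which by itself favours the higher median there. None of the 37 passed the test of the difference. All 37 were fitted higher in RANGAP1-AID cells (median 0.60), 31 in AID-TPR cells (0.25), 27 in AID-GANP cells (0.36) and 25 in AID-NXF1 cells (0.20). Among all tested genes, 46.1% to 52.3% were fitted higher in these comparisons. Higher with an adjusted p under 0.05 were 23 of the 37 in RANGAP1-AID, 21 in AID-GANP, 15 in AID-NXF1, 7 in AID-TPR and 5 in NUP153-AID cells. In the same order, the shares of all tested genes were 0.483%, 10.2%, 7.41%, 0.112% and 0.0337%. CYP1A1 itself had log2 fold changes of 4.64 in NUP153-AID, 5.86 in RANGAP1-AID, 1.88 in AID-TPR, 2.61 in AID-NXF1 and 2.17 in AID-GANP cells.

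In parental DLD-1 cells, which have no degron, the libraries labelled auxin had lower values than those labelled untreated for all 37 genes, against 49.7% of all tested genes. CYP1A1 differed by -3.84, TIPARP by -1.77, MEGF6 by -1.42 and CYP1B1 by -1.14 on the log2 scale. KLHL9 (0.00) and TRMT12 (0.14) were not called there. With the DLD-1 labels as given, 82 genes differed between the auxin effects of the 2 lines (0.46% of 17812), 77 of them higher with NUP50 loss, with CYP1A1 (9.53), MEGF6 (3.10) and CYP1B1 (3.04) the largest differences among genes averaging 50 or more counts and TRMT12 (-0.78), BDNF (-0.69) and KLHL9 (-0.56) the lowest.

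The names of the DLD-1 treatments in the study's supplementary tables are opposite to the labels, and which naming is right was not settled here. With the 2 DLD-1 groups exchanged, edgeR found 0 genes (0% of 17812) whose effect differed between 3 h of NUP50 loss and 2 h of auxin in cells without a degron, with 825 at an unadjusted p under 0.05 and a smallest adjusted p of 0.0659. DESeq2 gave 15. The 37 genes were chosen by their rise in these NUP50-AID libraries, which by itself favours higher values there. Under the exchange their median rise was 0.39 in DLD-1 cells against 0.79 with NUP50 loss. Of the 37, 36 had the higher value with NUP50 loss. The differences were 1.85 ± 0.53 for CYP1A1, 1.14 ± 0.18 for AHRR (adjusted p = 0.0659), 0.94 ± 0.14 for ADGRF1, 0.79 ± 0.12 for EDC3 and -0.55 ± 0.16 for TIPARP. KLHL9 differed by -0.56 ± 0.08 (adjusted p = 0.0659) and TRMT12 by -0.49 ± 0.11. Of the 15 genes from DESeq2, 9 were called at 3 h, among them AHRR, ALDH1A3, NANOS1, ADGRF1, EDC3 and KLHL9. The 6 with lower values with NUP50 loss, KBTBD7, KLHL9, ZFP62, ATXN7L3B, MAGEF1 and BAG5, all have 1 or 2 exons. The share of auxin in the rise of the 37 genes cannot be told apart from that of NUP50 loss while the naming is unsettled, and the hours of auxin differ.

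**Figure D5:**
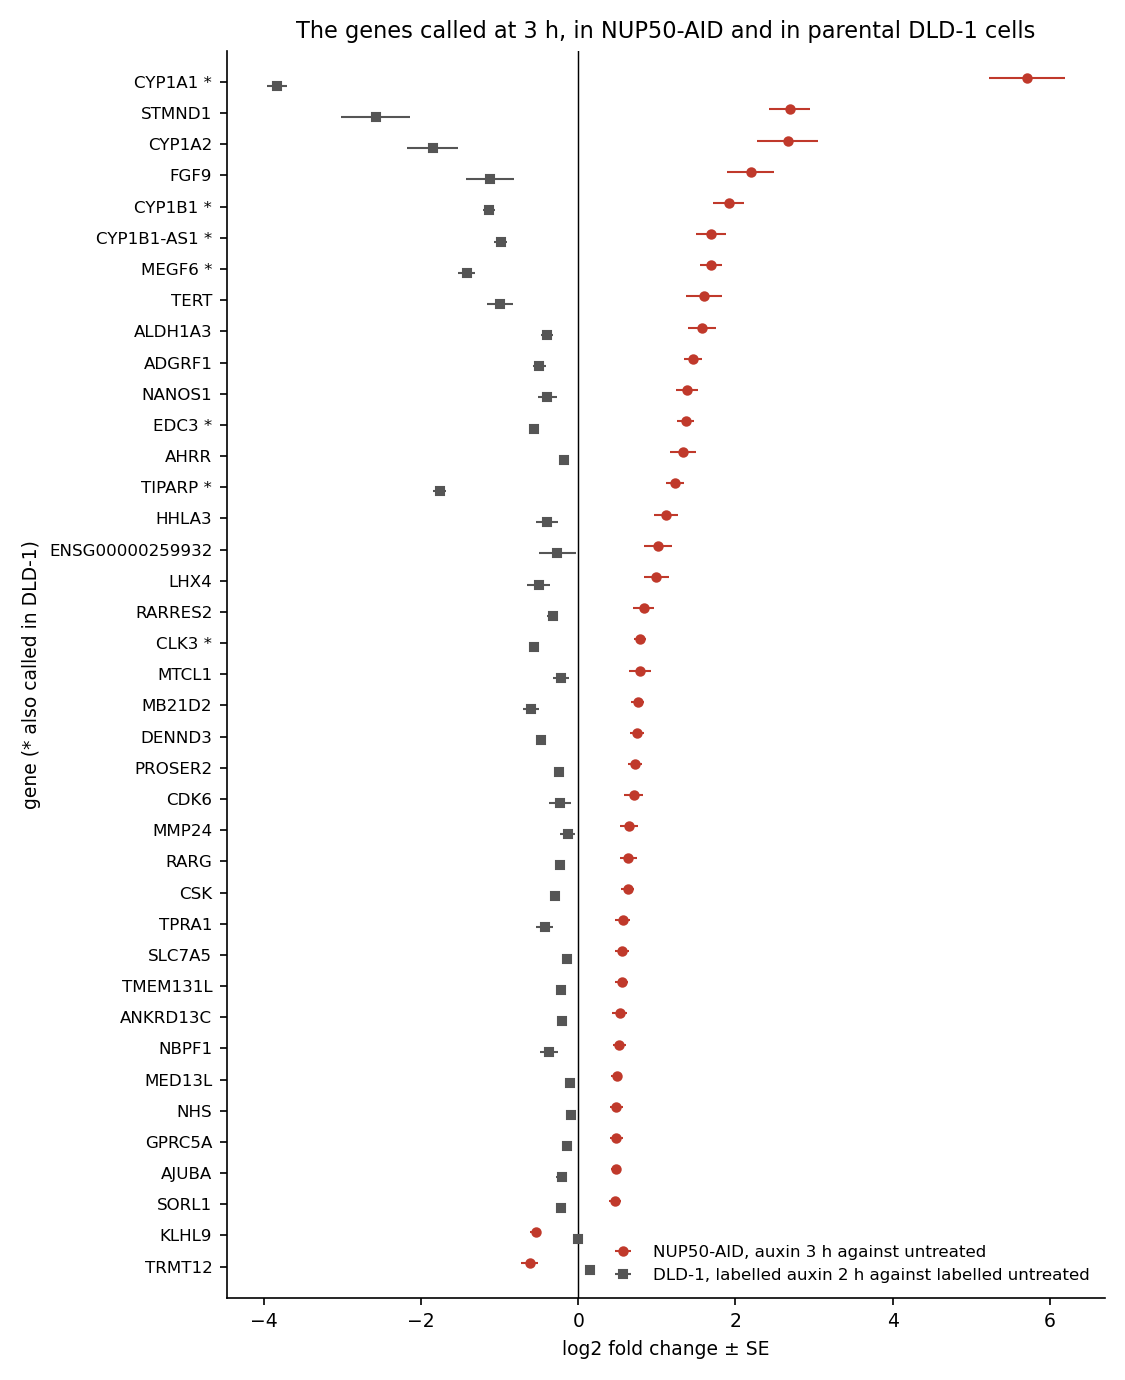
Log2 fold change ± SE (horizontal axis) of the 39 genes called at 3 h in NUP50-AID cells (circles) and of the same genes in parental DLD-1 cells as labelled (squares); an asterisk marks a gene also called in DLD-1. All 37 genes higher with NUP50 loss lie below 0 in DLD-1 cells.

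Between 3 h and 9 h of NUP50 loss 46 genes were called (0.258% of 17812), 39 lower and 7 higher at 9 h. The lean to lower was smaller in other fits, with 59 lower and 27 higher by DESeq2, 95 and 69 without a filter, and 113 and 102 with the replicate block. This comparison uses the same 3 h libraries as the one above. Among genes averaging 50 or more counts, the lowest at 9 h against 3 h were CYP1A1 (log2 fold change -4.57 ± 0.16, adjusted p = 1.61e-07), CEMIP, which breaks down hyaluronan (-1.74 ± 0.16), and OAS2, an interferon-induced enzyme (-1.66 ± 0.19). CYP1A1 fell to 22.4, 13.7 and 17.1 CPM, against 2.64, 3.90 and 17.1 CPM untreated. CEMIP was at 60.5, 80.7 and 132 CPM untreated, 165, 248 and 239 CPM at 3 h and 55.2, 62.8 and 77.9 CPM at 9 h. TIPARP was at 74.0, 68.2 and 71.0 CPM and NANOS1 at 38.5, 33.6 and 31.1 CPM at 9 h, both within the range of their untreated libraries. Other genes stayed above untreated at 9 h without differing from 3 h past the threshold. SLC7A5 was at 737, 757 and 709 CPM at 9 h against 501 to 567 CPM untreated, and CSK at 61.3, 55.1 and 55.2 CPM against 41.4 to 44.2 CPM. TERT stayed at 2.86, 3.78 and 2.79 CPM. With the same minimum of counts, the highest at 9 h against 3 h were SOX13, a transcription factor (0.89 ± 0.11, adjusted p = 0.00619), EGR1 (0.72 ± 0.11, adjusted p = 0.0238) and CAMKK1, a calmodulin-dependent kinase kinase (0.69 ± 0.12, adjusted p = 0.0432). EGR1 reached 28.5, 34.5 and 34.03 CPM, above all untreated and 3 h libraries. The count was 101 without auxin 3 h replicate 1 and 11 to 24 without auxin 3 h replicate 2 or 3 or auxin 9 h replicate 2 or 3.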

How the data were processed

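RNA was analysed from the read counts per gene that the authors deposited, 1 table of 58051 Ensembl genes per library. The cells were NUP50-AID, NUP153-AID, AID-TPR, AID-GANP, AID-NXF1, RANGAP1-AID and parental DLD-1. Per the labels, reads were processed with CASAVA 1.8.2, STAR 2.6.1c and featureCounts 1.5.2 on GRCh38; the study's methods name other STAR and featureCounts versions and Ensembl annotation. The strand setting is not given in the sources used here. The study's methods describe the replicates as independent biological samples.

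The 17812 genes above 1 CPM in more than 5% of 60 libraries, those given actinomycin D excluded, were tested on the deposited counts with edgeR 4.0.16 in R 4.3.3 (TMM scaling, quasi-likelihood test, Benjamini-Hochberg adjustment over all tested genes). Only the groups compared entered a fit. A call needed an adjusted p below 0.05 together with a ratio of 1.3 or more, or 0.7 or less, after the study's thresholds. DLD-1 calls were removed where stated. Differences between lines were tested as the line by auxin interaction at an adjusted p under 0.05. SE is the size of the log2 fold change divided by the square root of F. CPM values are TMM-scaled over the 9 NUP50-AID libraries, and marker sums are on library totals. Exons, biotypes and positions came from GENCODE 44, which matched 56948 of the gene IDs. The script was tested on simulated counts. DESeq2 1.42.0, other scalings and filters, a replicate block and each library left out were alternatives.

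Named were the genes called at 3 h (values per library for the 10 with the largest rise, a mean of at least 50 counts and groups apart, and for all that fell), called list members, NUP50, NUP153, TPR, RCC1, CYP1A1, CYP1B1, TIPARP, FOS, EGR1, ALDH1A3 and MB21D2, and the 3 largest differences each way in the other tests; other named genes were chosen after their values were seen. The comparisons and lists were chosen with earlier results of these data known. Libraries treated with actinomycin D were not used.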

Additional observations from a re-analysis of the deposited data

Results flagged for a closer look

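The auxin effect differed between NUP50-AID and NUP153-AID cells in 8 genes by the interaction test, all with the lower value in NUP50-AID cells. The differences in log2 fold change were -1.26 for ZBTB26, -0.96 for PLPP6, -0.87 for PABIR1, -0.82 for SPIN4, -0.77 for KLHL9, -0.76 for ZFP62, -0.75 for ATXN7L3B and -0.64 for BAG5.

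Between NUP50-AID cells and DLD-1 cells as labelled the auxin effect differed in 82 genes. Among those with a mean of at least 50 counts the largest differences were 9.53 for CYP1A1, 3.10 for MEGF6 and 3.04 for CYP1B1, and the lowest -0.78 for TRMT12, -0.69 for BDNF and -0.56 for KLHL9.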

How the results depend on the processing

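The 32 genes called at 3 h became 92 with DESeq2, 189 with no filter, 61 in one fit over the 9 NUP50-AID libraries, 18 with the CPM and FPKM filter, and 7 to 64 with a library left out. The 8 genes differing from NUP153-AID became 30 with DESeq2, 100 with no filter and 3 to 8 with a library left out. The 82 differing from DLD-1 became 177 with DESeq2, 272 with no filter, 0 with the DLD-1 labels exchanged and 55 to 91 with a library left out. The 46 called between 9 h and 3 h became 86 with DESeq2, 164 with no filter and 11 to 101 with a library left out. The cause was not tested. RLE size factors, library sizes alone and filterByExpr kept each count within 1.5 times. No named gene called at 3 h changed direction under any alternative tried.

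With the replicate block the counts were 159 at 3 h, 84 against NUP153-AID, 338 against DLD-1 and 215 for 9 h against 3 h. By replicate number the samples matched in part. Deviations from the group means over 11736 genes correlated at 0.572 for replicate 1 and 0.518 for replicate 3. Each was the best match of its auxin library. For replicate 2 the value was -0.041, and auxin replicate 2 correlated best with untreated replicate 3 (0.278). The main fits used no pairing. With 3 libraries a group and totals from 18943661 counts, genes of few counts such as CYP1A2 and FGF9 rest on few reads (means of 15.8 and 22 counts). Chosen after seeing the data were the removal of DLD-1 calls made with exchanged labels, which left 31 genes, DESeq2 and libraries left out under that exchange (15 genes, and 0 to 3), and the count of single-exon genes.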

Other observations

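Among the 37 genes higher after 3 h of NUP50 loss, untreated replicate 3 was the highest of the 3 untreated libraries in 24, replicate 1 in 10 and replicate 2 in 3. How often each was the highest over all tested genes was not counted. CYP1A1 was at 17.1 CPM in untreated replicate 3 against 2.64 and 3.90 CPM in the other untreated libraries.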
